A study of Mus musculus with 12 samples.

Results

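Aminoacyl-tRNA synthetases are the enzymes that join each amino acid to its transfer RNA. Their transcripts were examined in B16F10 cells, an established mouse melanoma line, by 36 gene symbols, 20 listed as cytosolic and 16 as mitochondrial. Gars and Kars, listed as cytosolic, also encode the mitochondrial forms of their enzymes. All 36 matched 1 row of the table of 54752 genes by Ensembl identifier, and all 36 passed the filter on low counts that left 18434 tested genes. The 12 libraries form 4 groups of 3, which share the cell line, DMEM with 10% FBS as medium, and the kit for stranded mRNA libraries. The groups are control (genotype labelled WT), Ep300 knockout, Crebbp knockout, and a knockout of both genes, called double knockout here. Ep300 and Crebbp encode p300 and CBP, related acetyltransferases that act as transcriptional coactivators. The labels do not say how the genes were disrupted, whether a knockout is a clone or a pool, or whether libraries of 1 group come from different cultures. P-values therefore measure the spread between these libraries, which may be technical.

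Each synthetase recognises its own transfer RNAs and amino acid, and charging is the step at which the genetic code is read into protein chemistry. Cytosolic enzymes serve translation on cytoplasmic ribosomes, and several of them sit together in a multi-synthetase complex held by scaffold proteins. Mitochondrial enzymes are also encoded in the nucleus and are imported to charge the transfer RNAs of the mitochondrial genome. When charged transfer RNA runs short, the kinase GCN2 and the transcription factor ATF4 raise genes for amino acid supply, and many cytosolic synthetase genes are known ATF4 targets.

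Libraries held 64257251 to 85604243 counts, and the biological coefficient of variation was 9.46%. The smallest count of any of the 36 in a library was 289, for Aars2. Crebbp fell in the libraries labelled Crebbp knockout (log2 fold change -0.91 ± 0.12, SE, adjusted p = 0.000527). Its log2 fold change in double knockout was -0.02 ± 0.11 (adjusted p = 0.922). Ep300 transcript did not pass the test in the libraries labelled Ep300 knockout (-0.15 ± 0.10, adjusted p = 0.376) and rose in double knockout (0.65 ± 0.10, adjusted p = 7.33e-05). Gene counts do not show which exons remain, so the groups are those of the labels, and directions below refer to libraries labelled with each knockout. All 8 melanocyte markers were detected, at up to 9160 CPM (reads relative to the library size scaled by TMM, the trimmed mean of M values), and their summed level fell to between 6684 and 6852 CPM in double knockout against 20004 to 21950 CPM in control. Of 5 fibroblast, 5 immune, 4 endothelial and 5 epithelial markers, 3, 1, 1 and 0 passed the filter, and Krt18 and Krt14 were at 0. The highest single marker of these lists was at 16.6 CPM. The fibroblast sum was 6.37 to 8.14 CPM in control and 14.5 to 19.4 CPM in Ep300 knockout. It was 8.54 to 12.3 CPM in Crebbp knockout and 12.7 to 13.8 CPM in double knockout. Its 3 tested members split in double knockout. Col1a1 and Pdgfra rose (1.64 ± 0.17 and 1.70 ± 0.18), while Col1a2 fell (-3.18 ± 0.21). The immune sum was 1.70 to 2.17 CPM in control and 3.25 to 3.84 CPM in Ep300 knockout. It was 1.49 to 1.87 CPM in Crebbp knockout and 5.48 to 6.72 CPM in double knockout. The part of these markers in the results was not tested.

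On a per-length scale (mean CPM over all 12 libraries per kilobase of the principal transcript), cytosolic synthetases stood above mitochondrial ones as groups, with medians of 42.4 and 5.61 CPM per kilobase. Gars, the glycyl enzyme, was highest at 195 CPM per kilobase, followed by Dars, the aspartyl enzyme, at 157 and Kars, the lysyl enzyme, at 90.8. Farsa, which encodes the alpha subunit of the phenylalanyl enzyme, was the lowest cytosolic gene at 14.0 CPM per kilobase, while Farsb, its beta subunit partner, stood at 44.3. Among mitochondrial genes the levels ran from 1.74 CPM per kilobase for Aars2, the alanyl enzyme, to 32.3 for Rars2, the arginyl enzyme. Only Rars2, Yars2 and Iars2 exceeded Farsa, the lowest cytosolic gene, on this scale. Summed over the 20 cytosolic genes, the level was 3434 to 3560 CPM in control, 3158 to 3258 CPM in Ep300 knockout, 3351 to 3535 CPM in Crebbp knockout and 3413 to 3616 CPM in double knockout. With TMM scaling, the Ep300 knockout libraries were thus below all 9 others in this sum. The order depends on that scaling. With library totals, Ep300 knockout replicate 3 (TMM factor 1.04) would not lie below control replicate 2 (factor 0.890). In bulk RNA, fewer cells with a transcript and less of it per cell cannot be told apart. Without Lars2, the mitochondrial sum was 340 to 375 CPM in control and 340 to 370 CPM in Ep300 knockout. It was 342.5 to 351.7 CPM in Crebbp knockout and 352.3 to 352.6 CPM in double knockout. The control and Ep300 knockout ranges overlapped each other and both of these, while Crebbp and double knockout did not overlap. The ratio of both sums ran from 9.50 to 10.2 in control and from 8.54 to 9.59 in Ep300 knockout, an overlap of the ranges.

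Promoter windows of 250 bases before and 50 after the start were taken from RefSeq (build GRCm38.p6) for 27 of the 36 genes. Wars, Cars, Hars, Lars, Nars, Rars, Vars, Hars2 and Pars2 had no matching window. The octamer TGATGNAA, on either strand, is the sequence bound by ATF4 with its C/EBP partners. It occurred in 5 of 13 cytosolic windows (38.5%), in 0 of 15 mitochondrial windows (14 genes), and in 3.97% of all 32851 promoters. A 30-base stretch around it is shown for each of these 5 genes because ATF4 is the factor best known for these genes, with the octamer in capitals and each stretch read 5′ to 3′ on the strand of the gene.
Aars: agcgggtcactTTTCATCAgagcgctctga
Gars: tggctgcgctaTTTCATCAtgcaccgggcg
Iars: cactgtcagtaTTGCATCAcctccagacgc
Tars: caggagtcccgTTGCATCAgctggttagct
Yars: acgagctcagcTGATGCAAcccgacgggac

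These stretches lie at chr8:111033840-111033869 (Aars), chr6:55037960-55037989 (Gars), chr13:49682126-49682155 (Iars) and chr4:129189895-129189924 (Yars) on the plus strand, and at chr15:11399655-11399684 (Tars) on the minus strand. Yars, the tyrosyl enzyme, carries the octamer in the sense orientation, and the other 4 matches shown read in reverse. CACGTG, the E-box bound by MYC and related factors, occurred in 4 of 13 cytosolic windows (Aars, Farsb, Iars and Tars), in 1 of 15 mitochondrial windows (Ears2) and in 7.15% of all promoters. The interferon-stimulated response element was found in 1 of 13 cytosolic windows (Qars), 0 of 15 mitochondrial ones and 3.44% of all, and TTCNNNGAA in 2 of 13 (Aars and Kars), 1 of 15 (Nars2) and 8.3%. In Aars, Iars and Tars, which hold matches of more than 1 motif, those matches do not overlap. A match is a string in a window, not a measured site.

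In Ep300 knockout against control, 4 of the 20 cytosolic genes fell and 0 rose, and 0 of the 16 mitochondrial genes passed. Those that fell encode the cysteinyl enzyme (Cars), the beta subunit of the phenylalanyl enzyme (Farsb), the glycyl enzyme (Gars) and the methionyl enzyme (Mars1). Of these, Gars serves both compartments. Across all tested genes 16.1% were called in this comparison, 7.27% higher and 8.83% lower. The median log2 fold change was -0.10 over the cytosolic genes, 0.01 over the mitochondrial genes and 0.01 over all tested genes, and 15 of 20 cytosolic values were negative. With no overlap between the groups, 2 cytosolic genes were higher and 7 lower, where 28.4% of all genes had no overlap, 13.8% higher and 14.6% lower.

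Cars was at 103, 124 and 110 CPM in control replicates 1, 2 and 3, and at 91.7, 93.6 and 89.1 CPM in Ep300 knockout. All 3 knockout libraries lay below all 3 controls, and the log2 fold change was -0.30 ± 0.07 (SE, adjusted p = 0.00773, edgeR quasi-likelihood test with Benjamini-Hochberg adjustment). Farsb went from 102, 95.9 and 95.6 CPM to 80.5, 73.3 and 84.3 CPM, again without overlap (-0.30 ± 0.06, adjusted p = 0.00382). Farsa, which makes the other subunit of the same enzyme, was at 22.7, 24.1 and 23.8 CPM in control and 24.9, 25.0 and 27.2 CPM in Ep300 knockout, a log2 fold change of 0.13 ± 0.06 that did not pass (adjusted p = 0.212). The phenylalanyl subunit genes thus had fold changes of opposite sign, and whether they differ from each other was not tested.

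Gars, the most abundant synthetase transcript per length, was at 484, 529 and 484 CPM in control and 405, 433 and 415 CPM in Ep300 knockout. These groups did not overlap, and Gars fell by 0.26 on the log2 scale (SE 0.07, adjusted p = 0.0171). Without control replicate 2 or Ep300 knockout replicate 1 its adjusted p was 0.0561 and 0.0553. Mars1, which also initiates translation by charging the initiator transfer RNA, fell from 72.2, 81.9 and 73.0 CPM to 62.8, 64.5 and 63.5 CPM (-0.25 ± 0.06, adjusted p = 0.0123). Sars, the seryl enzyme, did not pass the test, at 274, 329 and 273 CPM in control and 248, 258 and 241 CPM in Ep300 knockout (-0.23 ± 0.08, adjusted p = 0.0599). The other 15 cytosolic values lay between -0.16 (Nars) and 0.13 (Farsa). With library totals in place of TMM scaling, the calls of Farsb, Gars and Mars1 were lost (adjusted p = 0.0971, 0.0817 and 0.0772). In a fit of only the 2 groups, those of Gars and Mars1 were lost (0.0863 and 0.0524).

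**Figure D1:**
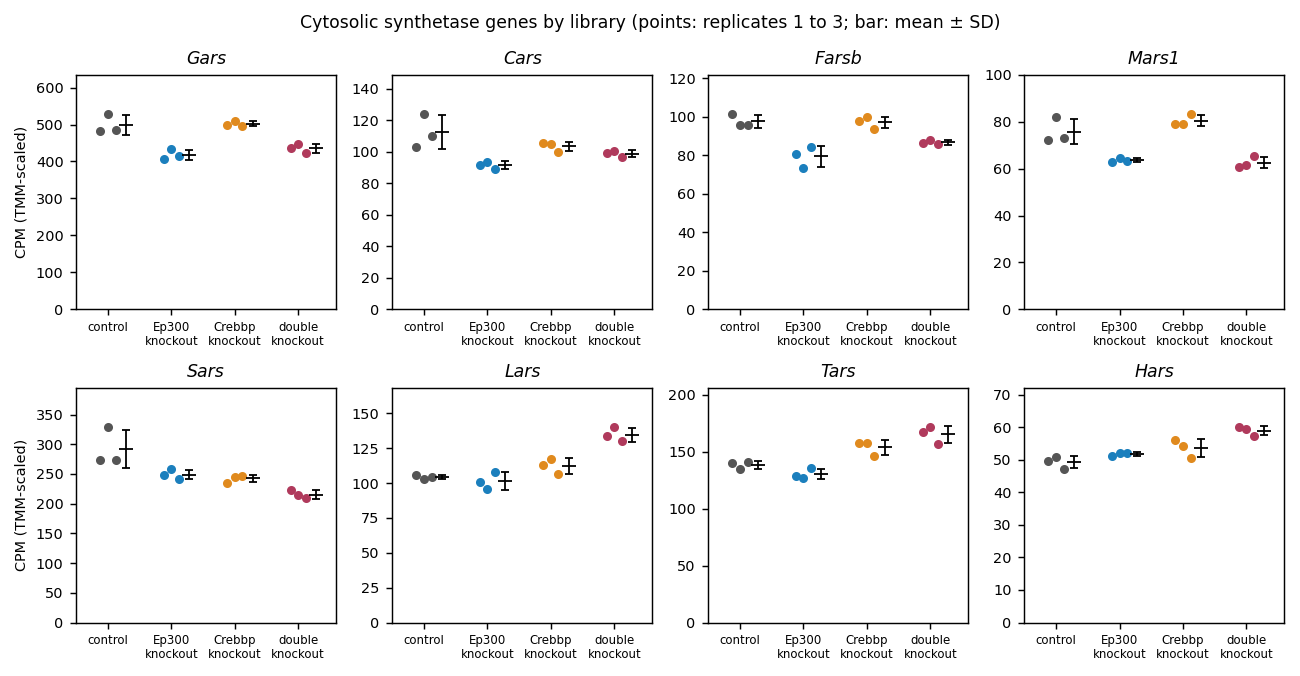
CPM after TMM scaling (y axes, from 0) of 8 cytosolic synthetase genes in the 12 libraries, grouped on the x axes. Points are replicates 1 to 3 from left to right and bars show the mean ± SD (n = 3). In Gars, Cars, Farsb and Mars1 the Ep300 knockout and double knockout points lie below all control points, while in Lars, Tars and Hars the double knockout points lie above all control points. With library totals in place of TMM, the double knockout log2 fold changes of Gars, Cars and Farsb turn positive.

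In Crebbp knockout, 0 of 20 cytosolic and 0 of 16 mitochondrial synthetase genes passed the edgeR test, where 3.13% of all genes were called, 1.52% higher and 1.61% lower. At an unadjusted p under 0.05 there were 4 of 20 cytosolic and 1 of 16 mitochondrial genes, where 3263 of 18434 tested genes had one. DESeq2 called 2 cytosolic genes, Farsa higher and Sars lower, and 0 mitochondrial ones, and limma-voom called 0 in both. Cytosolic log2 fold changes ran from -0.27 (Sars) to 0.21 (Vars), with a median of 0.04. Sars was at 235, 245 and 247 CPM, below all 3 controls (-0.27 ± 0.08, adjusted p = 0.0788), and Tars, the threonyl enzyme, at 157, 157 and 146 CPM, above the controls at 140, 134 and 141 CPM (0.15 ± 0.06, adjusted p = 0.226). Of the cytosolic genes, 5 were higher and 2 lower with no overlap between groups, against 10.9% and 9.61% of all tested genes (20.5% in all).

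In double knockout the cytosolic genes split. Against control, 6 of 20 rose (Lars, Vars, Hars, Tars, Aars and Farsa), 5 fell (Sars, Mars1, Gars, Cars and Farsb) and 9 did not pass. Of all tested genes, 49.4% were called, 24.7% higher and 24.6% lower, so the cytosolic share of 55.0% is near the background. Groups without overlap numbered 11 higher and 6 lower of 20, where 59.7% of all genes had none, 30.1% higher and 29.6% lower. The median absolute log2 fold change was 0.19 over the cytosolic genes and 0.37 over all tested genes, which include genes of far lower level. In Crebbp knockout these medians were 0.095 and 0.15. Genes of matched level were not compared. The 4 genes that fell in Ep300 knockout are among the 5 that fell in double knockout. Both comparisons share the control libraries. With library totals in place of TMM the median of all genes moved from -0.02 to 0.22, and the cytosolic calls became 14 higher and 1 lower. The directions in double knockout are therefore relative to the middle of all genes. The cytosolic median was 0.12 with TMM and 0.36 with library totals, and 0.00 with offsets for length and GC content.

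Lars, the leucyl enzyme of the multi-synthetase complex, was at 106, 103 and 105 CPM in control and 134, 140 and 130 CPM in double knockout. No library of either group overlapped the other, and Lars rose by 0.37 ± 0.07 on the log2 scale (29.1%, adjusted p = 0.000268). Hars, the histidyl enzyme, rose from 49.5, 50.9 and 47.2 CPM to 60.0, 59.4 and 57.4 CPM (0.26 ± 0.06, adjusted p = 0.00197). Tars rose from the control values above to 167, 172 and 157 CPM (0.25 ± 0.06, adjusted p = 0.00365). Sars had the largest fall, to 223, 214 and 209 CPM from 274, 329 and 273 CPM (-0.44 ± 0.08, 26.2% lower, adjusted p = 0.000275). These 4 calls held in each of the 21 alternative fits and left-out libraries.

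The other double knockout calls of cytosolic genes were less stable. Mars1 was at 60.9, 61.5 and 65.3 CPM, below all controls (-0.28 ± 0.06, adjusted p = 0.00217), a call lost with library totals (-0.04, adjusted p = 0.669) and kept without each single library. Vars, the valyl enzyme, was at 101, 87.4 and 97.7 CPM in control and 115, 121 and 112 CPM in double knockout (0.28 ± 0.10, adjusted p = 0.0215). Its value turned to -0.022 with the length and GC offsets, and the call was lost without control replicate 2 (0.0838) or double knockout replicate 2 (0.077). Aars, the alanyl enzyme, was at 270, 248 and 265 CPM in control and 297, 319 and 292 CPM in double knockout (0.21 ± 0.08, adjusted p = 0.0411), and turned to -0.072 with the offsets. The Aars call was lost without control replicates 1, 2 or 3 (0.0532, 0.118 and 0.0784), double knockout replicates 1, 2 or 3 (0.0712, 0.15 and 0.0565), Ep300 knockout replicate 2 (0.0515) or Crebbp knockout replicate 1 (0.0553).

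Gars stood at 435, 448 and 423 CPM in double knockout (-0.20 ± 0.07, adjusted p = 0.0261), with 0.041 in its place under library totals. Without control replicate 2, double knockout replicate 1 or double knockout replicate 3, Gars was not called (0.0902, 0.0758 and 0.102). Cars stood at 99.4, 101 and 96.3 CPM (-0.18 ± 0.07, adjusted p = 0.0388), and Farsb at 86.4, 88.1 and 85.8 CPM (-0.17 ± 0.06, adjusted p = 0.0365), and they turned to 0.055 and 0.063 under library totals. Their groups did not overlap with control. Cars was not called without control replicates 2 or 3 (0.19 and 0.0583), any double knockout library (0.0878, 0.0736 and 0.125), Ep300 knockout replicate 2 (0.0513) or Crebbp knockout replicates 1 or 2 (0.0517 and 0.0516). Farsb was not called without control replicates 1 or 3 (0.129 and 0.0513) or any double knockout library (0.0994, 0.0741 and 0.104). Farsa was at 27.3, 25.8 and 26.3 CPM, higher than control by 0.17 ± 0.06 (adjusted p = 0.0379). Farsa was not called without control replicates 1 or 3 (0.131 and 0.0748), any double knockout library (0.133, 0.0605 and 0.0748), Ep300 knockout replicate 2 (0.0506) or Crebbp knockout replicate 1 (0.0555). Farsa and Farsb again had opposite signs, as subunits of 1 enzyme. With no filter on low counts Cars, Farsa, Farsb and Gars were not called (0.121, 0.129, 0.162 and 0.0981), nor was Cars in a fit of only the 2 groups (0.0655) or Farsb with the offsets (-0.05, adjusted p = 0.639).

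Among the 8 synthetases of the multi-synthetase complex (Eprs, Lars, Iars, Mars1, Qars, Rars, Kars and Dars), 1 rose (Lars) and 1 fell (Mars1) in double knockout, against 5 and 4 of the 12 outside it, with medians of 0.09 and 0.14 and with 49.4% of all genes called. Their difference was not tested. Dars had the largest SE of the cytosolic genes, at 331, 405 and 344 CPM in control and 305, 297 and 308 CPM in double knockout (-0.25 ± 0.11, adjusted p = 0.0748). Qars, the glutaminyl enzyme, had close group means of 97.7 ± 2.40, 98.2 ± 2.63, 101 ± 0.652 and 101 ± 2.10 CPM (SD, n = 3) in control, Ep300, Crebbp and double knockout. Of the scaffold genes, Aimp1 fell in double knockout, from 87.7, 108 and 89.7 CPM to 77.3, 70.4 and 74.5 CPM (-0.36 ± 0.10, adjusted p = 0.00623), with -0.12 and adjusted p = 0.199 under library totals. Aimp2 (0.06 ± 0.11) and Eef1e1 (-0.34 ± 0.15, adjusted p = 0.0648) did not pass. In the other comparisons 0 of 3 scaffold genes passed.

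**Figure D2:**
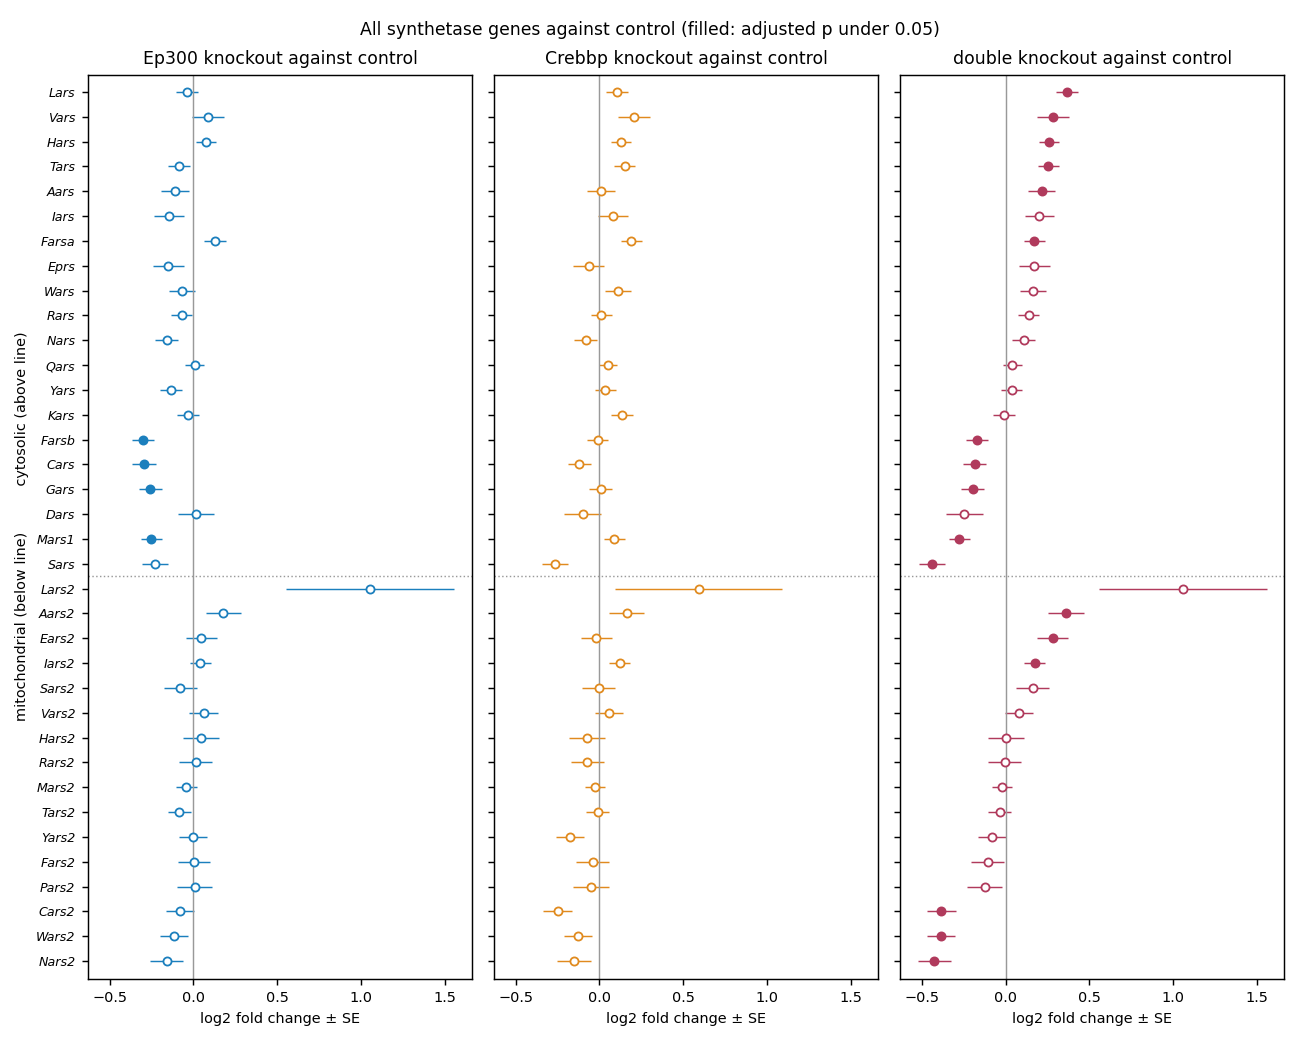
Log2 fold change against control (x axes) of the 20 cytosolic (above the dotted line) and 16 mitochondrial synthetase genes (below it), with SE, n = 3 libraries per group, filled where the adjusted p is under 0.05. Filled points number 4, 0 and 11 among the cytosolic and 0, 0 and 6 among the mitochondrial genes in Ep300, Crebbp and double knockout. Among the called genes, the double knockout values of Gars, Cars and Farsb turn positive (library totals) and those of Aars and Vars negative (offsets).

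Directly against Ep300 knockout, 9 of 20 cytosolic genes were higher in double knockout and 1 (Sars) was lower, where 34.6% of all genes were called, 18.0% higher and 16.6% lower. The median of the cytosolic genes was 0.18, against -0.01 over all tested genes. The groups did not overlap in 12 higher and 1 lower of 20, where the share over all genes was 47.4%, with 24.4% higher and 23.0% lower. Lars was higher by 0.41 ± 0.07 (adjusted p = 0.000293), from 101, 95.6 and 108 CPM in Ep300 knockout. Iars, the isoleucyl enzyme, went from 147, 151 and 173 CPM to 198, 213 and 190 CPM (0.35 ± 0.09, adjusted p = 0.00782), and Tars from 129, 127 and 135 CPM to the level above (0.34 ± 0.06, adjusted p = 0.000956). Nars, the asparaginyl enzyme, went from 186, 185 and 198 CPM to 226, 240 and 219 CPM (0.27 ± 0.07, adjusted p = 0.00759). These 4 calls held in all alternatives, and in each the groups did not overlap. Aars was higher by 0.33 ± 0.08 (adjusted p = 0.00708), a call lost with the offsets (0.10, adjusted p = 0.132). With library totals the median of all genes was 0.16 and the cytosolic calls were 15 higher and 0 lower.

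The remaining differences between these groups each depended on single libraries. Eprs, the glutamyl-prolyl enzyme, was higher by 0.32 ± 0.09 (adjusted p = 0.0151), and not called without Ep300 knockout replicates 1 or 2 (0.0509 and 0.0683) or double knockout replicate 2 (0.0794). Rars, the arginyl enzyme, was higher by 0.21 ± 0.06 (adjusted p = 0.0174), and not called without Ep300 knockout replicate 2 (0.0783) or double knockout replicate 2 (0.0876). Hars was higher by 0.19 ± 0.06 (adjusted p = 0.0245), and not called without Ep300 knockout replicates 1 or 2 (0.0643 and 0.063) or double knockout replicates 1 or 2 (0.0876 and 0.0811). Wars, the tryptophanyl enzyme, was higher by 0.23 ± 0.08 (adjusted p = 0.0339), and not called without Ep300 knockout replicates 1 or 2 (0.121 and 0.12) or double knockout replicates 1, 2 or 3 (0.0542, 0.117 and 0.0764). Sars was lower by 0.21 ± 0.08 on the log2 scale (log2 fold change -0.21, adjusted p = 0.0497), a call lost without any of 9 libraries, at adjusted p from 0.0536 (without control replicate 1) to 0.171 (without Ep300 knockout replicate 2). The others of these 9 are control replicate 3 (0.0595), Ep300 knockout replicate 1 (0.0991), Crebbp knockout replicates 1 and 2 (0.07 and 0.0662) and double knockout replicates 1, 2 and 3 (0.0798, 0.133 and 0.154). With no filter on low counts Hars, Rars and Sars were not called (0.0945, 0.0602 and 0.0902). Without Ep300 knockout replicate 3, the cytosolic calls numbered 14, and without Ep300 knockout replicate 2 or double knockout replicate 2 they numbered 5.

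Between the single knockouts, 4 of 20 cytosolic genes were lower in Ep300 than in Crebbp knockout and 0 higher, where 13.6% of all genes were called, 6.26% higher and 7.37% lower. With no overlap there were 9 lower and 0 higher, where 27.1% of all genes had none, 13.0% higher and 14.2% lower. Mars1 was at 78.9, 79.2 and 83.5 CPM in Crebbp knockout and 62.8, 64.5 and 63.5 CPM in Ep300 knockout (-0.34 ± 0.06, adjusted p = 0.00176). Farsb differed by -0.29 ± 0.06 (adjusted p = 0.00599), from 97.8, 99.7 and 93.7 CPM in Crebbp knockout. Gars, at 499, 509 and 497 CPM in Crebbp knockout, differed by -0.26 ± 0.07 (adjusted p = 0.0172), and was not called without Ep300 knockout replicate 1 (0.0643) or Crebbp knockout replicates 1 or 2 (0.0594 and 0.0657). Tars differed by -0.24 ± 0.06 (adjusted p = 0.0205), and was not called without Ep300 knockout replicates 1 or 2 (0.0571 and 0.0893) or Crebbp knockout replicates 1 or 2 (0.0865 and 0.0822). Among the 16 mitochondrial genes 0 passed, 0 had an unadjusted p under 0.05 (4700 of 18434 over all tested genes), and DESeq2 and limma-voom called 0.

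An additivity test compared the change in double knockout with the changes of Ep300 and Crebbp knockout added on the log2 scale, where 10.3% of all genes were called, 5.33% higher and 4.96% lower. Of the 36 synthetases only Nars passed, with 0.35 ± 0.10 (adjusted p = 0.0326). Nars was at 212, 211 and 212 CPM in control, 186, 185 and 198 CPM in Ep300 knockout, 209, 207 and 185 CPM in Crebbp knockout, and 226, 240 and 219 CPM in double knockout. Both single knockouts lay below control in every library and the double knockout above it, while none of the 3 comparisons with control passed (-0.16, -0.08 and 0.11, adjusted p = 0.14, 0.57 and 0.211). The call was lost without 8 of the 12 libraries: control replicates 1 and 3 (0.0727 and 0.0761), Ep300 knockout replicates 1 and 2 (0.0557 and 0.088), Crebbp knockout replicate 3 (0.0655) and double knockout replicates 1, 2 and 3 (0.0692, 0.1 and 0.0507). Eprs (0.38 ± 0.13, adjusted p = 0.0747) and Lars (0.30 ± 0.09, adjusted p = 0.0503) had values of similar size that did not pass.

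Mitochondrial synthetase genes passed the test in double knockout only as 3 rises and 3 falls of 16, or 37.5%, with 49.4% called over all genes. In Ep300 knockout 0 passed, 0 had an unadjusted p under 0.05 (5005 of 18434 over all tested genes), and DESeq2 and limma-voom called 0. Nars2, the asparaginyl enzyme, fell from 21.3, 27.3 and 23.5 CPM to 17.9, 17.1 and 18.7 CPM (-0.42 ± 0.10, adjusted p = 0.00251). Wars2, the tryptophanyl enzyme, fell from 11.6, 12.4 and 12.0 CPM to 9.61, 9.21 and 8.72 CPM (-0.38 ± 0.08, adjusted p = 0.00133). Cars2, the cysteinyl enzyme, fell from 13.9, 16.6 and 13.8 CPM to 11.1, 11.4 and 11.5 CPM (-0.38 ± 0.09, adjusted p = 0.00177). In all 3 the groups did not overlap, and the calls held without each single library. With library totals the values were -0.19, -0.15 and -0.14, and none was called (adjusted p = 0.0842, 0.159 and 0.143).

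Aars2 rose from 5.46, 5.05 and 4.86 CPM to 6.87, 6.48 and 6.40 CPM (0.36 ± 0.11, adjusted p = 0.0103), with 0.09 and adjusted p = 0.388 under the length and GC offsets. Ears2, the glutamyl enzyme, was at 5.70, 6.21 and 7.15 CPM in control and 7.82, 7.46 and 7.88 CPM in double knockout (0.28 ± 0.09, adjusted p = 0.0195). Its call was lost without control replicates 1 or 2 (0.103 and 0.0515) or double knockout replicates 1 or 3 (0.0565 and 0.0591). Iars2, the isoleucyl enzyme, was at 84.6, 79.9 and 81.4 CPM in control and 91.6, 95.9 and 90.1 CPM in double knockout (0.17 ± 0.06, adjusted p = 0.0291). That call was lost without control replicates 2 or 3 (0.0768 and 0.0819) or double knockout replicates 1 or 2 (0.0617 and 0.115), and with no filter on low counts (0.0945). With library totals the mitochondrial calls became 8 higher and 0 lower, and with the offsets 2 higher and 4 lower. Against Ep300 knockout, 0 mitochondrial genes were higher in double knockout and 2 of 16 were lower, where 18.0% and 16.6% of all genes were. Cars2 differed by -0.30 ± 0.09 (adjusted p = 0.0133), not called without Ep300 knockout replicate 2 (0.0634) or double knockout replicate 1 (0.0508). Wars2 differed by -0.27 ± 0.08 (adjusted p = 0.0208), not called without Ep300 knockout replicate 1 (0.0975) or double knockout replicates 2 or 3 (0.0631 and 0.0884), or with no filter (0.0553). Without Ep300 knockout replicate 3 the mitochondrial calls in this comparison were 4 higher and 3 lower.

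Enzymes for the same amino acid can be read in pairs across both compartments. In double knockout the alanyl pair Aars and Aars2 were both called higher and the cysteinyl pair Cars and Cars2 both lower, with the reversals given above for Aars and Cars. Leucyl, histidyl, threonyl, valyl, seryl, methionyl and phenylalanyl enzymes were called in the cytosolic form only, and asparaginyl, tryptophanyl, glutamyl and isoleucyl enzymes in the mitochondrial form only. This is a division of calls at the threshold, and differences within pairs were not tested. Iars had 0.20 ± 0.09 (adjusted p = 0.073) beside Iars2 at 0.17 ± 0.06. Lars2 had 1.06 ± 0.50 (adjusted p = 0.109) beside Lars at 0.37 ± 0.07. Sars2 was at 0.16 ± 0.10 (adjusted p = 0.189), with the sign opposite to that of Sars. Hars2 was at 0.00 ± 0.11, beside Hars at 0.26 ± 0.06. Hars and Hars2 lie head to head on chromosome 18 and share 195 exon bases on opposite strands.

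Lars2, the mitochondrial leucyl enzyme, had the largest fold changes and passed no test. Its levels were 28.5, 26.0 and 29.8 CPM in control, 28.9, 31.5 and 114 CPM in Ep300 knockout, 35.3, 36.2 and 55.5 CPM in Crebbp knockout, and 53.7, 41.4 and 80.4 CPM in double knockout. Ep300 knockout replicate 3 stood apart from both other libraries of its group. The log2 fold changes were 1.05 ± 0.50, 0.59 ± 0.50 and 1.06 ± 0.50 (adjusted p = 0.216, 0.582 and 0.109). Without Ep300 knockout replicate 3 the first was 0.10 (adjusted p = 0.847) and the last was called higher (1.06 ± 0.21, adjusted p = 0.000886). With no filter on low counts all 3 were called higher. Gm15564, a noncoding gene on chromosome 16 (35966752 to 35983230, minus strand) chosen after its values were seen, was at 0.317, 0.455 and 0.459 CPM in control, 0.320, 0.557 and 4.66 CPM in Ep300 knockout, 0.760, 0.672 and 1.86 CPM in Crebbp knockout, and 1.82, 0.992 and 2.53 CPM in double knockout. The highest library of each knockout group was replicate 3 for both genes. What they share was not tested.

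**Figure D3:**
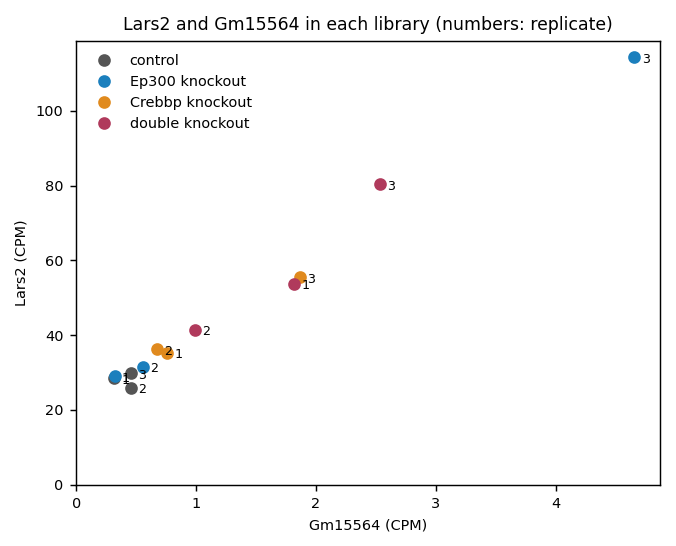
Level of Lars2 (y axis, CPM) against that of Gm15564 (x axis, CPM) in the 12 libraries, coloured by group and numbered by replicate, 1 point per library. Ep300 knockout replicate 3 lies at 114 and 4.66 CPM, apart from the controls, which lie at 26.0 to 29.8 and 0.317 to 0.459 CPM.

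Genes that surround the charging step were examined as fixed lists. Of 15 other charging and editing enzymes, 1 rose and 2 fell in Ep300 knockout, 0 passed in Crebbp knockout, and 5 rose and 5 fell in double knockout (7 and 3 with library totals), where 16.1%, 3.13% and 49.4% of all genes were called. The falls in Ep300 knockout numbered 0 without control replicate 2, Ep300 knockout replicate 2 or Ep300 knockout replicate 3, and 1 without control replicates 1 or 3. The rises numbered 3 without control replicate 2, and 2 without Ep300 knockout replicate 3 or Crebbp knockout replicate 3. In double knockout the falls numbered 3 without control replicate 2 or double knockout replicates 2 or 3. Tarsl2, a threonyl synthetase paralog, rose from 3.48, 2.45 and 2.92 CPM to 4.11, 4.51 and 5.03 CPM in Ep300 knockout (0.62 ± 0.14, adjusted p = 0.00654). It reached 6.88, 8.07 and 7.75 CPM in double knockout (1.35 ± 0.14, adjusted p = 1.42e-06). Gatb, a subunit of the mitochondrial amidotransferase that makes glutaminyl-tRNA, fell in double knockout by 0.58 ± 0.08 on the log2 scale (log2 fold change -0.58, adjusted p = 4.37e-05).

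Of 5 cytosolic elongation factor genes, 4 fell in double knockout, where 24.6% of all genes were lower. Among them was Eef1a1 (-0.68 ± 0.14, adjusted p = 0.000939), whose product carries charged transfer RNA to the ribosome. Eef1b2 (-0.68 ± 0.14, adjusted p = 0.00096) and Eef1g (-0.60 ± 0.08, adjusted p = 1.29e-05) fell too. Eef1g also fell in Ep300 knockout (-0.31 ± 0.08, adjusted p = 0.0105), the 1 of 5 that passed there, where 16.1% of all genes were called. Of 8 mitochondrial translation factors, 0 passed in either single knockout, and 1 rose and 3 fell in double knockout. Of all genes, 16.1%, 3.13% and 49.4% were called in Ep300, Crebbp and double knockout. With control replicate 2 or any 1 double knockout library left out, 0 of these factors rose and 1 fell, and without Ep300 knockout replicate 2 there were 2 falls.

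Atf4 and 13 of 21 tested amino acid genes under ATF4 fell in Ep300 knockout, where Cars, Farsb, Gars and Mars1 also fell. Atf4 fell from 360, 390 and 378 CPM to 281, 260 and 262 CPM in Ep300 knockout (-0.49 ± 0.07, adjusted p = 0.000168), and it stood at 288, 294 and 296 CPM in double knockout (-0.36 ± 0.07, adjusted p = 0.000723), or -0.12 with adjusted p = 0.107 under library totals. Of the 21 amino acid genes 0 rose and 8 did not pass in Ep300 knockout, with a median of -0.33, where 8.83% of all genes were called lower and 7.27% higher. Under library totals 8 fell and 0 rose. Slc7a11, the cystine transporter, fell from 78.3, 64.5 and 77.2 CPM to 24.2, 25.6 and 28.9 CPM (-1.48 ± 0.09, adjusted p = 1.19e-08), and Asns, asparagine synthetase, from 221, 227 and 226 CPM to 179, 173 and 183 CPM (-0.33 ± 0.06, adjusted p = 0.00096). In Crebbp knockout 1 of 21 passed, where 3.13% of all genes were called. It was Slc7a11 (-0.46 ± 0.09, adjusted p = 0.011), a call lost without control replicate 3 (0.0556) or Crebbp knockout replicate 2 (0.0563).

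In double knockout 11 of these 21 genes fell and 4 rose, where 24.6% and 24.7% of all genes did, with a median of -0.26 (3 fell and 8 rose under library totals, with a median of -0.03). Asns did not pass, at 220, 234 and 224 CPM beside the control values above (0.01 ± 0.06, adjusted p = 0.924). Pycr1, a proline synthesis enzyme, rose (0.82 ± 0.09, adjusted p = 2.51e-06), as did Chac1, which degrades glutathione (0.83 ± 0.08, adjusted p = 1.09e-06). Of 12 stress kinases and members of the ATF4 circuit, 2 rose and 4 fell in Ep300 knockout, and 7 rose and 3 fell in double knockout (8 and 0 under library totals), where 16.1% and 49.4% of all genes were called. The 2 rises in Ep300 knockout were 1 without control replicate 1 or Ep300 knockout replicate 3. The 3 falls in double knockout were 1 without control replicates 1 or 3 or double knockout replicate 3, and 2 with replicate 2 of Crebbp knockout, or with 1 or 2 of double knockout, left out. In Crebbp knockout 0 rose and 2 fell, where 3.13% of all genes were called. They were Ddit3 (-0.32 ± 0.07, adjusted p = 0.0219), lost without control replicate 3 (0.105) or Crebbp knockout replicates 1 or 2 (0.0858 and 0.0958), and Trib3 (-0.34 ± 0.07, adjusted p = 0.0189), lost without control replicates 2 or 3 (0.0509 and 0.0804) or Crebbp knockout replicates 1 or 2 (0.0838 and 0.0886). Trib3, a feedback inhibitor of ATF4, fell in Ep300 knockout from 33.9, 37.1 and 36.4 CPM to 21.8, 22.3 and 24.2 CPM (-0.65 ± 0.07, adjusted p = 8e-06) and stood at 37.7, 36.4 and 33.6 CPM in double knockout (0.00 ± 0.07). Ddit3, the stress factor CHOP, rose in double knockout to 29.4, 30.3 and 29.9 CPM from 20.9, 22.1 and 22.8 CPM (0.45 ± 0.07, adjusted p = 7.01e-05). Ddit3 shares 68 exon bases with Mars1 on the opposite strand, and Mars1 fell in the same libraries. Eif2ak4, which encodes GCN2, did not pass in any of the 3 knockouts (-0.12, -0.07 and -0.17).

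Of the 5 genes with the ATF4 octamer in the printed stretches, only Gars passed in Ep300 knockout. In double knockout Aars and Tars were called higher and Gars lower, with the reversals given above for Aars and Gars, and Iars (0.20 ± 0.09, adjusted p = 0.073) and Yars (0.04 ± 0.06, adjusted p = 0.679) did not pass. Farsb and Mars1, which fell in Ep300 knockout, had windows without the octamer, and Cars had no window. By library, the median log2 level relative to control over the amino acid genes was -0.34, -0.40 and -0.25 in Ep300 knockout and -0.28, -0.18 and -0.23 in double knockout. The cytosolic synthetases had -0.17, -0.13 and -0.03 and then 0.09, 0.16 and 0.07. In double knockout the medians of both lists lay on opposite sides of control in all 3 libraries with TMM scaling, while with the offsets the cytosolic median was 0.00.

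**Figure D4:**
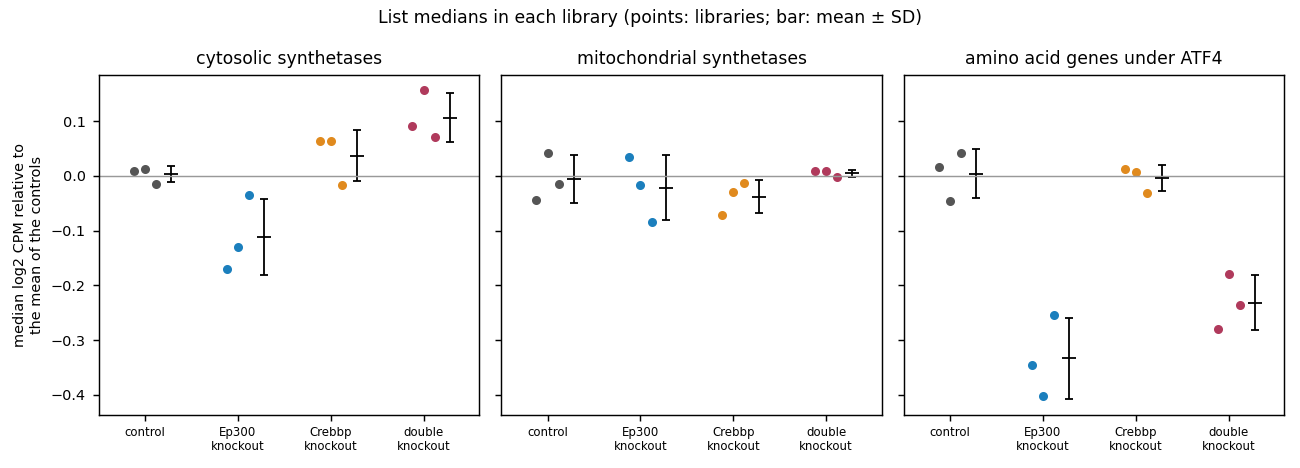
Median log2 CPM relative to the mean of the controls (y axis, TMM-scaled) over the 20 cytosolic synthetases, the 16 mitochondrial synthetases and the 21 amino acid genes under ATF4, by group (x axes), 1 point per library with mean ± SD (n = 3). The cytosolic synthetases lie between -0.17 and -0.03 in Ep300 knockout and between 0.07 and 0.16 in double knockout, while the amino acid genes lie below 0 in both. With length and GC offsets the cytosolic median in double knockout is 0.00.

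Wars is known for its induction by interferon, and interferon genes rose in Ep300 and double knockout. Isg15, an interferon-induced ubiquitin-like protein, rose from 9.80, 10.8 and 9.76 CPM to 88.4, 85.1 and 82.5 CPM in Ep300 knockout and 256, 249 and 258 CPM in double knockout (3.08 ± 0.07 and 4.65 ± 0.07, adjusted p = 1.64e-13 and 9.38e-16). All 9 tested interferon genes rose in both, where 7.27% and 24.7% of all genes rose. In Crebbp knockout 4 of 9 rose (median 0.19), where 1.52% of all genes did, and 2 rose with any 1 control library left out, with replicate 1 or 2 of Crebbp knockout left out, or with replicate 1 or 3 of double knockout left out, and also 2 under a replicate block or when only the compared groups were fitted. Wars was at 97.3, 89.7 and 94.8 CPM in control, 84.2, 86.4 and 98.6 CPM in Ep300 knockout, 104, 109 and 91.5 CPM in Crebbp knockout and 102, 109 and 105 CPM in double knockout. It passed against control in none of the 3 knockouts (-0.07 ± 0.08, 0.11 ± 0.08 and 0.16 ± 0.08, adjusted p = 0.66, 0.489 and 0.0975). The E-box in the 4 cytosolic windows above is bound by MYC and related factors, so a match does not point to MYC alone. Myc fell in Ep300 knockout (-0.49 ± 0.08, adjusted p = 0.000471), and its fall was -0.66 ± 0.08 in double knockout (adjusted p = 7.89e-06). Of these 4 genes, only Farsb passed in Ep300 knockout, where it fell. In double knockout Aars and Tars were called higher, Farsb was called lower and Iars did not pass. The signs of Aars and Farsb reversed under the settings given above. A link of Myc to these genes was not tested.

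Some values rest on exons shared with another gene, and the strand setting of the counting is not given in the sources used here. Iars2 shares 22.9% of its exon bases with Rab3gap2 on the opposite strand, Farsb 9.47% with Sgpp2 and Cars2 5.83% with Naxd. Aars shares 14.3% of its exon bases with Exosc6 on the same strand, where the strand cannot separate them. Counts of these genes can thus include or lose reads of the neighbour, and this was not tested.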

How the data were processed

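RNA of B16F10 cells was sequenced in 12 libraries, 3 in each of 4 groups taken from the sample titles. Per the submitters' processing notes, the tools were bcl2fastq, HISAT2 and HTSeq on build mm10. Versions, annotation and strand setting: not given in the sources used here. In the authors' deposited table are raw read counts per Ensembl gene, with no normalization. Symbols, positions and exon lengths came from GENCODE M21, which matched 54723 of 54752 identifiers.

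Genes were filtered with filterByExpr, scaled by TMM and tested with edgeR 4.0.16 (robust quasi-likelihood F test, R 4.3.3) in 1 fit of all 12 libraries with group as the term. P-values were adjusted over all tested genes by Benjamini and Hochberg, with a threshold of 0.05. Standard errors derive from the F statistic. The fit was tested on simulated data. Alternatives were RLE size factors, DESeq2 1.42.0, limma-voom 3.58.1, no filter, a minimum of 1 CPM in 3 libraries, a fit of just the compared groups, a block for the replicate number, length and GC offsets (splines with 5 degrees of freedom) and leaving out each library. Library totals without a scaling factor were added after seeing the data.

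The members and lists were chosen with earlier results of these data known. All 36 synthetases could be named, with Ep300, Crebbp, Mitf, Myc, Atf4, Ddit3, Trib3, Asns, Eif2ak4, Aimp1, Aimp2, Eef1e1 and Isg15, and from every other list the 3 members with the smallest adjusted p per comparison. Some genes that the rule names and 1 sequence are not reported here.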

Additional observations from a re-analysis of the deposited data

Results flagged for a closer look

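By the additivity test, the double knockout value differed from the sum of the single-knockout values in 1 synthetase gene. It also did in 16 genes of the stress and amino acid lists. The groups are those of the labels. Nars had a difference of 0.35 on the log2 scale, and its 3 libraries lay below control in Ep300 knockout and above it in double knockout. As given above, the Nars call was lost when any of several single libraries was left out.

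In the stress kinase and ATF4 circuit list 8 of 12 genes passed this test, where 5.33% of all genes were called in this direction. Their differences were 1.00 for Atf5, 0.92 for Ddit3, 0.93 for Cebpb, 0.55 for Cebpg, 0.87 for Ppp1r15a, 1.00 for Trib3, 0.99 for Nupr1 and 0.66 for Eif2ak2. Eif2ak2, the interferon-induced kinase PKR, rose in both Ep300 knockout and double knockout.

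Among 21 tested amino acid genes under ATF4 there were 8, with differences of 0.34 for Asns, 0.78 for Pycr1, 0.71 for Chac1, 0.67 for Sesn2, 1.10 for Slc7a11, 0.37 for Slc1a4, 1.19 for Vldlr and 0.43 for Gpt2. The Asns call was lost without control replicate 3 (adjusted p = 0.0529), Ep300 knockout replicate 2 (0.0597) or double knockout replicate 2 (0.0654), and the Slc1a4 call without any of 9 libraries (0.0577 to 0.114). In all 17 genes the double knockout value was above the sum of the single-knockout values.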

How the results depend on the processing

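Calls of the 36 synthetases that held in all 21 alternatives numbered 1 of 4 in Ep300 knockout (Cars), 4 of 17 in double knockout (Hars, Lars, Sars and Tars), 4 of 12 for double against Ep300 knockout (Iars, Lars, Nars and Tars), 1 of 4 for Ep300 against Crebbp knockout (Mars1) and 0 of 1 for the sum (20 alternatives, since it needs all 4 groups). The counts of calls that moved by over 1.5 times were as follows. The 4 cytosolic calls in Ep300 knockout became 2 with only the groups compared, 7 with offsets and 1 with library totals, and the 0 mitochondrial ones 1 with no filter. In Crebbp knockout the 0 cytosolic calls became 2 with DESeq2, 1 with no filter and 2 with offsets, and the 0 mitochondrial ones 1 with no filter. For double against Ep300 knockout the 2 mitochondrial calls became 4 with DESeq2, 1 CPM, offsets and library totals. For Ep300 against Crebbp knockout the 4 cytosolic calls became 2 with only the groups compared or library totals, and the 0 mitochondrial ones 1 with no filter or offsets. For the sum, the 1 cytosolic call became 4 with DESeq2, 3 with offsets or library totals and 2 with RLE, limma-voom, no filter or 1 CPM, and the 0 mitochondrial ones 1 with no filter. With library totals the cytosolic calls in double knockout were 15 of 20. The cause was not tested.

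With the replicate number as a block, cytosolic calls in double knockout numbered 7 (11 without it) and for the sum 0 (1 without it), and no other count moved by over 1.5 times. Of 18 same-number correlations between groups 5 were over 0.1 (range -0.66 to 0.50), and 1 of 12 libraries correlated best with its own number, so the numbers were not taken as pairs.

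Leaving out each library gave, for cytosolic and mitochondrial calls, 3 to 4 and 0 to 0 in Ep300 knockout, 0 to 0 and 0 to 0 in Crebbp knockout, 6 to 13 and 4 to 7 in double knockout, 5 to 14 and 1 to 7 for double against Ep300 knockout, 2 to 7 and 0 to 0 for Ep300 against Crebbp knockout, and 0 to 4 and 0 to 0 for the sum.

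Among values called with the main settings or the alternative ones, signs turned in double knockout with offsets for Aars (-0.072), Vars (-0.022) and Vars2 (-0.19), and with library totals for Cars (0.055), Farsb (0.063), Gars (0.041), Kars (0.23), Mars2 (0.21), Rars2 (0.23), Mtfmt (0.0084) and Gfm1 (0.043). Against Ep300 knockout they turned with offsets for Vars2 (-0.16), Prorsd1 (0.18) and Slc7a1 (-0.15). The library totals differ from the main settings in construction by the TMM factors, 1.10 to 1.12 in double knockout and 0.890 to 0.980 in control.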
